A study of Mus musculus with 11 samples.

Results

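The leucine and serine tRNA genes were taken from a count table of mouse tRNA genes by the amino acid in each gene's name, which gave 53 of the 433 genes, 29 for leucine and 24 for serine. They fall into 10 isoacceptor families, each named by amino acid and anticodon, 5 for leucine (LeuAAG, LeuCAA, LeuCAG, LeuTAA and LeuTAG) and 5 for serine (SerAGA, SerCGA, SerGCT, SerGGA and SerTGA). The libraries were made from RNA of the frontal lobe of C57BL/6 embryos, either wild-type or Nsun2-/-, which lack the tRNA cytosine-5 methyltransferase NSUN2. At E18.5 there were 4 wild-type and 4 Nsun2-/- samples, and at E13.5 there were 1 wild-type and 2 Nsun2-/- samples. The tissue is a mixture of cells, and the tables hold tRNA genes only, so neither the tissue nor the loss of Nsun2 could be checked in them.

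Leucine and serine tRNAs, with the selenocysteine tRNA, form the class II tRNAs: between the anticodon stem and the T stem they carry a long variable arm that folds into a stem and loop, where other tRNAs have only a few bases. Seryl-tRNA synthetase recognises its tRNAs through this arm rather than through the anticodon. NSUN2 is known to methylate cytosines next to the variable arm of many tRNAs, and in LeuCAA, whose genes hold an intron, it also methylates the wobble base of the anticodon, on the precursor that still has its intron.

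The counted intervals bear out this structure. Of the 53 intervals, 49 were at least 122 bases long. Intervals without an intron measured 122 or 123 bases, which is 40 bases more than the 82 or 83 bases RefSeq lists for leucine and serine tRNA genes in GRCm38.p6, and the LeuCAA intervals measured 145 to 147 bases against 105 to 107 in RefSeq. A single SerAGA copy, chr5.trna1135-SerAGA, had a longer interval of 167 bases and no count. The 4 shorter intervals, of 112 or 113 bases, were 3 LeuAAG copies without a count and the only SerGGA copy, chr11.trna832-SerGGA, with 4 counts in all. The label of a long variable arm is therefore not borne out by length for these 4 copies.

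The arm can be seen in reads that the study listed for single copies. Per the paper, those lists hold tRNA-derived small RNAs that differed in abundance between genotypes, so they are not a sample of all reads. The longest listed read that ends in CCA, the 3′ end added to mature tRNAs, is shown for each family that had one, with capitals on the stem and loop of the variable arm, found as the longest inverted repeat with a loop of 3 to 5 bases before the T stem. No such read was found here in these lists for LeuTAG, SerCGA or SerGGA, which does not show that none exist.
LeuAAG, listed for chr14.trna188: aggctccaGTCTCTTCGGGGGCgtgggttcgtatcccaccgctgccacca
LeuCAA, listed for chr13.trna65: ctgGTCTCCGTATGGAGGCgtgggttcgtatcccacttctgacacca
LeuCAG, listed for chr1.trna705 and chr13.trna952: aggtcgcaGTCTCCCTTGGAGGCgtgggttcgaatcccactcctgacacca
LeuTAA, listed for chr10.trna1316: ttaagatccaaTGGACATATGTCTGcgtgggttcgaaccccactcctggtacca
SerAGA, listed for chr13.trna980: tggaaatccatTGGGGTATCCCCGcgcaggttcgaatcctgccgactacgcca
SerGCT, listed for chr11.trna1821 and chr13.trna115: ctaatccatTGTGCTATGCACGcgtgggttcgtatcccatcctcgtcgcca
SerTGA, listed for chr13.trna112: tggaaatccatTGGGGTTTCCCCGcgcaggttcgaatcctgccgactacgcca
The arms spanned 13 to 16 bases, with stems of 5 or 6 base pairs, G-U pairs allowed. The reads listed for SerAGA and SerTGA differed at 1 of 53 positions. This position, A18T counted from the 5′ end of the SerAGA read, lies in the loop of the arm. Neither read holds the anticodon triplet of its family, and reads with the arm of the SerTGA read were also listed for SerAGA. The difference is therefore one between listed reads, and is not shown to be one between the families.

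Some reads cannot be assigned to a single family. The following 37-base read was listed for all 4 LeuCAA copies and for 3 LeuCAG copies, chr1.trna698, chr8.trna414 and chr8.trna1008. It covers the last part of the variable arm, the T arm and the 3′ end, and mapping allowed up to 2 mismatches.
LeuCAA and LeuCAG: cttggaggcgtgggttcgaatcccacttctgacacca
The following 64-base read of chr1.trna698-LeuCAG is long enough to reach the anticodon, here in capitals, which shorter reads may not.
LeuCAG: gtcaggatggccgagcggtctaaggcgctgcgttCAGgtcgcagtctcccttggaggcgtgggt
Counts of single copies, and to a smaller extent of LeuCAA against LeuCAG and of SerAGA against SerTGA, are for this reason uncertain, and the sources used here do not give whether reads listed for several genes entered the counts.

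The 11 libraries held between 4011 and 9827 tRNA counts each, and the sources used here do not say whether a count is a read or a distinct read sequence. At E18.5 the Nsun2-/- libraries were smaller, with 4551 ± 431 counts (SD, n = 4) against 5641 ± 257 in wild-type, and this difference in depth moves with genotype in every comparison at E18.5 (two-sided exact permutation test, p = 0.0286). Counts of Nsun2-/- samples 1 and 2 of E18.5 agreed within sampling noise (chi-square p = 0.933 over tRNA genes), but so did 6 of the 12 pairs of samples within a group at E18.5, 4 of 6 in Nsun2-/- and 2 of 6 in wild-type (p above 0.05). All samples were therefore kept apart, and results that change when samples 1 and 2 are counted as 1 sample, as an alternative, are given both ways. The smallest share that 3 counts allow lay between 0.0305% and 0.0748% of a library. Nothing in the labels states that the samples of a group came from separate litters, so p-values measure the spread between these samples.

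Leucine and serine genes together took between 10.03% and 12.4% of all tRNA counts. Of the 53 copies, 45 had a count and 8 had none: 4 LeuAAG copies (chr13.trna62, chr16.trna4, chr16.trna829 and chr19.trna2), 3 LeuCAG copies that lie close together on chromosome 1 (chr1.trna701, chr1.trna703 and chr1.trna705) and chr5.trna1135-SerAGA. Per the methods, reads were kept only where they mapped to 1 best place in the genome, so a copy without counts is not shown to be silent. The LeuCAG read printed above was listed for chr1.trna705 as well as chr13.trna952, so listed reads and counts do not match for chr1.trna705. A few copies carried most of the signal: the 5 most counted copies held 43.2% of the 6954 leucine and serine counts.

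The E18.5 libraries addressed whether loss of NSUN2 changed the share of counts from these tRNA genes. Leucine tRNAs made up 4.84%, 4.90%, 4.99% and 5.34% of all counts in the 4 Nsun2-/- samples and 5.70%, 5.66%, 5.62% and 5.37% in the 4 wild-type samples. The groups did not overlap, although the highest Nsun2-/- sample and the lowest wild-type sample lay close together. The mean share was 5.02 ± 0.223% against 5.59 ± 0.150% (SD, n = 4), a difference of -0.57 percentage points (two-sided exact permutation test, p = 0.0286, the smallest that 4 against 4 samples allow, and 0.200 after Benjamini-Hochberg adjustment over 21 amino acids). With Nsun2-/- samples 1 and 2 counted as 1, the difference was -0.52 with an exact permutation p of 0.0571, the smallest that 3 against 4 samples allow. Of the 21 amino acids, 14.3% had an unadjusted permutation p under 0.05. In libraries of mixed cells, fewer cells that hold a tRNA and less of it per cell cannot be told apart. Counting also did not separate fragments from full-length tRNAs, so a lower share of counts is not shown to be a lower amount of tRNA.

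The leucine share was also computed without LeuCAA. With LeuCAA left out of both the sum and the total, an alternative chosen after seeing that this family separated by genotype, leucine tRNAs took 3.10 ± 0.304% in Nsun2-/- and 3.30 ± 0.145% in wild-type samples (n = 4 each), and the difference was -0.20 percentage points with an exact permutation p of 0.314. Because LeuCAA was picked for its own separation, a smaller difference without it follows in part from that choice.

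Serine tRNAs made up 5.69%, 5.47%, 6.23% and 5.39% of counts in the Nsun2-/- samples at E18.5 and 6.70%, 6.36%, 6.17% and 6.72% in the wild-type samples. Nsun2-/- sample 3 lay above the lowest wild-type sample, so the groups overlapped. The mean was 5.69 ± 0.378% against 6.49 ± 0.270% (n = 4), a difference of -0.79 percentage points that did not pass (two-sided exact permutation test, p = 0.0571, adjusted p = 0.300).

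**Figure D1:**
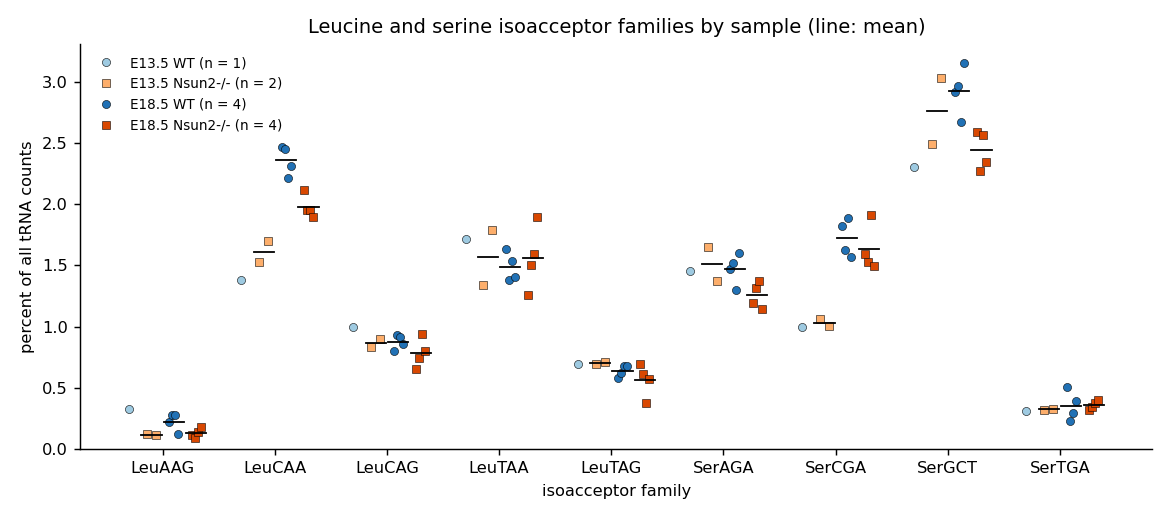
Percent of all tRNA counts (y axis) for 9 leucine and serine isoacceptor families (x axis) in each of the 11 samples; points are samples, colours and shapes are stage and genotype, and the line is the mean of a group with more than 1 sample. At E18.5 the Nsun2-/- samples lie below all wild-type samples for LeuCAA (1.89% to 2.11% against 2.21% to 2.47%) and for SerGCT (2.27% to 2.59% against 2.67% to 3.16%), and every E18.5 sample lies above every E13.5 sample for LeuCAA and SerCGA. How many of all families separate by stage in this way is not given here.

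At the level of families, LeuCAA and SerGCT were the members with the clearest separation by genotype. LeuCAA, which reads a UUG codon and is the wobble-base target of NSUN2, took 2.11%, 1.95%, 1.95% and 1.89% of counts in the Nsun2-/- samples at E18.5 and 2.47%, 2.45%, 2.21% and 2.31% in wild-type. SerGCT, which reads the serine codons AGC and AGU, took 2.59%, 2.27%, 2.57% and 2.34% in Nsun2-/- and 2.91%, 2.97%, 2.67% and 3.16% in wild-type samples. Neither family overlapped between genotypes. Families that lay lower in every Nsun2-/- sample than in every wild-type sample made up 8.89% of the 45 tested.

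Neither passed the test across all families. The log2 fold change of LeuCAA was -0.20 (SE 0.094, edgeR adjusted p = 0.197) and that of SerGCT was -0.21 (SE 0.092, edgeR adjusted p = 0.192), and both were under 0.05 only before adjustment, at 0.048 and 0.038. Of the 8 leucine and serine families tested, none passed in edgeR and none in DESeq2, against 13.3% of the 45 families tested in edgeR, and 2 and 0 had an unadjusted p under 0.05 in the respective tools. Over all 45 families 11 were under 0.05 before adjustment in edgeR, and the number that passed was 6, against 1 with upper-quartile scaling and 3 without Nsun2-/- sample 1 or 2. The log2 fold change was below 0 for 6 of these 8 families, with a median of -0.12, against 20 of 45 and a median of 0.03 over all families. LeuAAG and SerGGA had too few counts to be tested at E18.5.

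The other tested families did not pass at E18.5 either. SerAGA, with edgeR adjusted p = 0.454, took 1.26 ± 0.105% in Nsun2-/- and 1.47 ± 0.128% in wild-type samples (n = 4). LeuTAA, which reads the codon UUA, took 1.56 ± 0.262% and 1.49 ± 0.119%, a log2 fold change of 0.12 (SE 0.124) that fell to 0.027 without Nsun2-/- sample 4. SerCGA took 1.63 ± 0.190% and 1.72 ± 0.152%, a log2 fold change of -0.01 (SE 0.111). LeuCAG, LeuTAG and SerTGA had log2 fold changes between -0.13 and 0.08, with SEs between 0.154 and 0.292. LeuAAG, which was not tested, took 0.128 ± 0.0383% in Nsun2-/- and 0.223 ± 0.0742% in wild-type samples (n = 4), with overlap.

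The selenocysteine tRNA, the remaining tRNA with a long variable arm, went the other way. The selenocysteine gene with counts took 6.84 ± 0.391% of counts in Nsun2-/- and 5.31 ± 0.324% in wild-type samples at E18.5 (n = 4), and rose in Nsun2-/- by 0.42 on the log2 scale (SE 0.078, edgeR adjusted p = 0.0012). Because it makes up part of every total, the leucine share was also set against the counts outside leucine, serine and selenocysteine, where its difference was -0.68 percentage points with an exact permutation p of 0.0571.

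**Figure D2:**
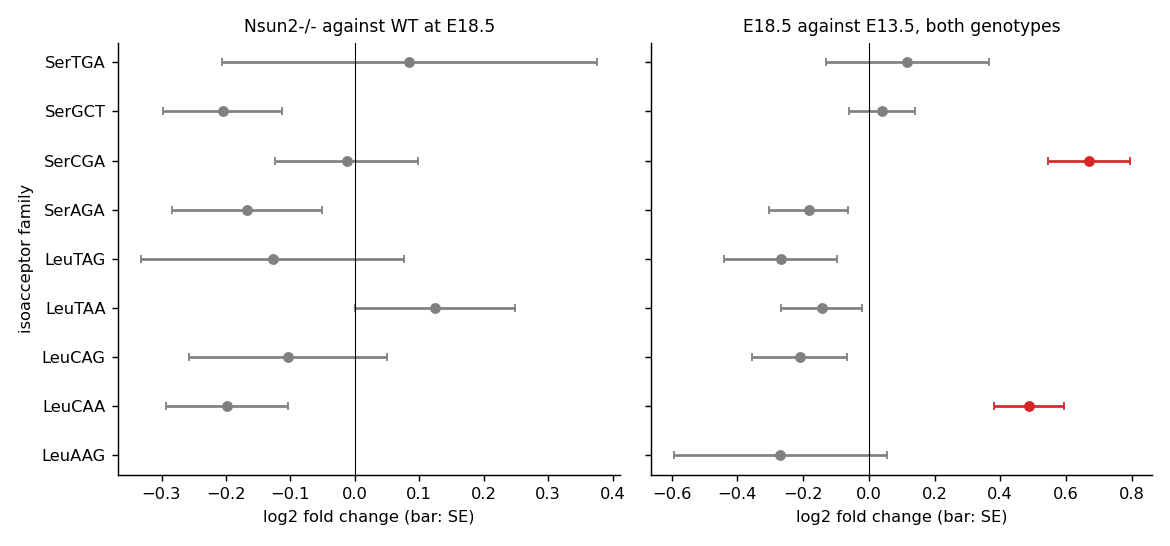
Log2 fold change (x axis, with SE bars) of each tested leucine and serine family (y axis), for Nsun2-/- against wild-type at E18.5 on the left and for E18.5 against E13.5 over both genotypes on the right; red points have an edgeR adjusted p below 0.05. No family is red on the left, where LeuCAA and SerGCT lie at -0.20 and -0.21, and on the right LeuCAA and SerCGA stand out at 0.49 and 0.67.

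The balance of anticodons within each amino acid was compared next. At E18.5 LeuCAA made up 43.7%, 39.8%, 39.0% and 35.5% of leucine counts in the Nsun2-/- samples and 43.3%, 43.3%, 39.4% and 43.1% in the wild-type samples. The groups overlapped, since Nsun2-/- sample 1 had the highest share of all. Set against all other leucine tRNAs, LeuCAA had a mean log2 ratio of -0.62 ± 0.204 in Nsun2-/- and -0.45 ± 0.114 in wild-type samples (n = 4), a difference of -0.17 (two-sided exact permutation test, p = 0.343). The difference of LeuCAA within leucine therefore did not exceed the spread between samples, and it was -0.084 without Nsun2-/- sample 4 and -0.25 without Nsun2-/- sample 1.

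LeuTAA had the largest difference in share within leucine, 31.0 ± 3.90% in Nsun2-/- against 26.6 ± 1.82% in wild-type samples (n = 4), with overlapping groups (two-sided exact permutation test, p = 0.114, adjusted p = 0.423 over 37 anticodons). LeuCAG took 15.6% and 15.7%, and LeuTAG 11.3% and 11.4%, of leucine counts in Nsun2-/- and wild-type samples. LeuAAG, too sparse to be tested, took 2.53 ± 0.657% and 3.97 ± 1.26% (n = 4).

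Within serine, SerGCT made up 42.9 ± 1.98% of counts in Nsun2-/- and 45.1 ± 2.00% in wild-type samples at E18.5 (n = 4), with an exact permutation p of 0.200. SerCGA took 28.6 ± 1.38% and 26.7 ± 3.03%, SerAGA 22.1 ± 1.38% and 22.7 ± 1.43%, and SerTGA 6.30 ± 0.791% and 5.38 ± 1.67%. None of the 8 anticodon shares tested in leucine and serine had a permutation p under 0.05, where 16.2% of the 37 tested over all amino acids did.

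**Figure D3:**
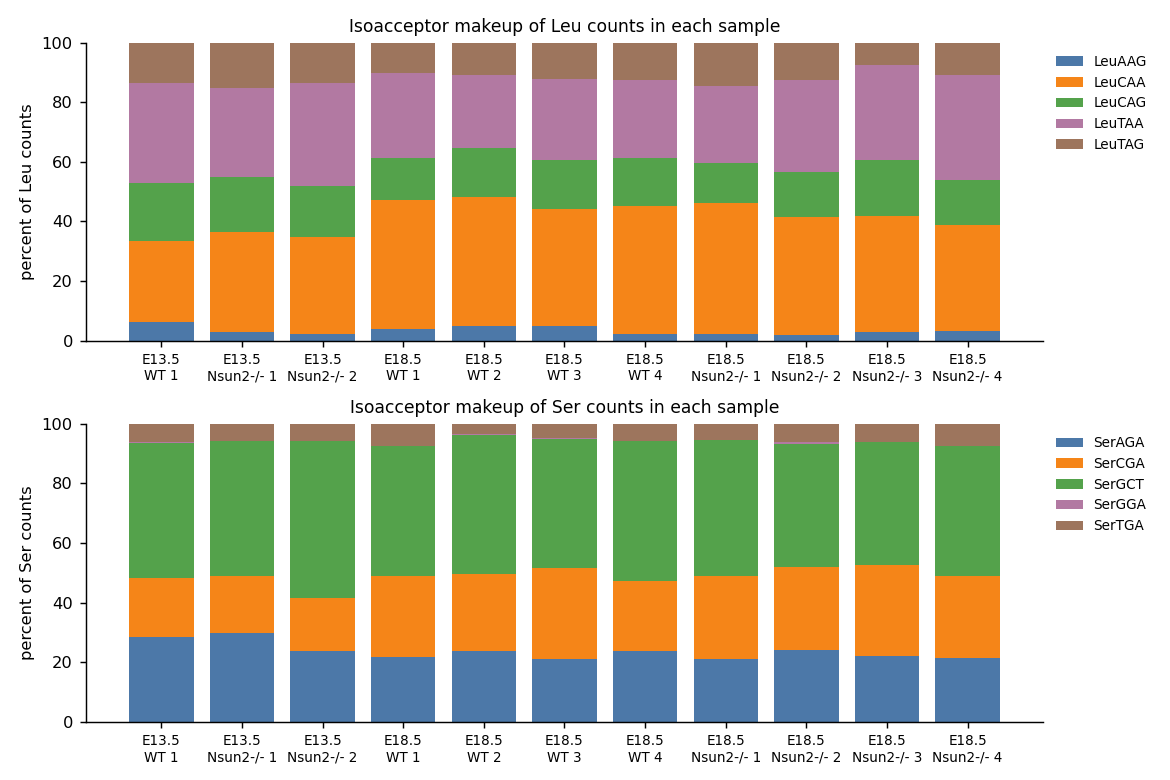
Stacked percent of leucine counts (upper panel) and of serine counts (lower panel) held by each isoacceptor family (y axis, 0 to 100%), with 1 bar for each of the 11 samples. LeuCAA takes 27.0% to 33.8% of leucine counts in the 3 E13.5 bars and 35.5% to 43.7% in the 8 E18.5 bars, and SerCGA takes 17.5% to 19.7% and 23.4% to 30.7% of serine counts.

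LeuCAA and SerCGA were compared between stages. In the wild-type sample at E13.5 LeuCAA was 27.0% of leucine counts (95% Wilson interval 22.6% to 31.9%, counting error only), and in the Nsun2-/- samples it was 33.8% and 32.6%. Every E18.5 sample lay above these values. SerCGA was 19.7% of serine counts in the E13.5 wild-type sample (95% Wilson interval 15.8% to 24.2%) and 19.2% and 17.5% in the Nsun2-/- samples, again below every E18.5 sample. The part of all families that separate by stage without overlap is not given here, so this separation is not shown to be particular to them.

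Against all tRNA counts, LeuCAA rose from 1.38% in the E13.5 wild-type sample and 1.53% and 1.70% in the E13.5 Nsun2-/- samples to between 1.89% and 2.47% in the E18.5 samples. Its log2 fold change between stages, averaged over genotypes, was 0.49 (SE 0.106, edgeR adjusted p = 0.0004). SerCGA, which reads the codon UCG, rose from 1.00%, 1.06% and 1.00% to between 1.50% and 1.91%, a log2 fold change of 0.67 (SE 0.125, edgeR adjusted p = 5.4e-05). These were 2 of the 9 leucine and serine families tested, and none fell, while 40.4% of the 47 families tested passed, 21.3% upward and 19.1% downward. The E13.5 wild-type group is a single library, and within Nsun2-/- samples alone SerCGA still passed while LeuCAA, at 0.23 on the log2 scale, did not (edgeR adjusted p = 0.171). The E13.5 libraries held 5481 to 9827 counts and the E18.5 libraries 4011 to 5924, and the part of depth in the stage difference was not tested.

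The remaining families had no stage difference that passed. LeuTAG had a log2 fold change of -0.27 (SE 0.172), LeuAAG -0.27 (SE 0.324), LeuCAG -0.21 (SE 0.145), SerAGA -0.18 (SE 0.119) and LeuTAA -0.14 (SE 0.125). SerGCT, the most counted of these families, had 0.04 (SE 0.100) and SerTGA 0.12 (SE 0.248).

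At E13.5, where 2 Nsun2-/- samples stood against 1 wild-type sample, the fit across all samples called no family and no copy in the whole table (0% of 47 families and 0% of 155 copies by edgeR), with 7 families and 12 copies under 0.05 before adjustment. Of the leucine and serine members, 1 of 9 families and 3 of 22 copies had an unadjusted p under 0.05, and DESeq2 also called none, with 0 and 1 under 0.05 before adjustment. The family was LeuAAG, at 0.122% and 0.109% in Nsun2-/- and 0.323% in wild-type (95% Wilson interval 0.213% to 0.489%), and its difference was -1.37 on the log2 scale (SE 0.508, edgeR adjusted p = 0.248). Its most counted copy, chr14.trna188-LeuAAG, had 2 and 3 counts in Nsun2-/- and 14 in wild-type.

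LeuCAA and SerGCT lay on opposite sides of 0 at the 2 stages in their genotype difference. At E13.5 LeuCAA had a log2 fold change of 0.28 (SE 0.186) and SerGCT of 0.31 (SE 0.171) in Nsun2-/- against wild-type, where both had been below 0 at E18.5. The test of the change itself gave -0.51 (SE 0.214, edgeR adjusted p = 0.205) for LeuCAA and -0.54 (SE 0.201, edgeR adjusted p = 0.161) for SerGCT, so neither passed. With 1 sample left out, the value of SerGCT ran from -0.73 to -0.40. The -0.73 came without Nsun2-/- sample 1 of E13.5, which left 1 sample of each genotype at that stage. No leucine or serine member passed this test among 9 families and 22 copies in edgeR or in DESeq2, against 4.26% of all families and 0.645% of all copies in edgeR. Before adjustment 2 families and 3 copies were under 0.05 in edgeR, and 1 family and 1 copy in DESeq2, and over all tRNA genes 7 of 47 families and 15 of 155 copies were in edgeR.

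Single copies were compared last. The filter on low counts left 15 of the 53 copies for the test at E18.5, and 22 for the fit over all 11 samples. The 15 copies held 83.0% of leucine and serine counts. The 30 copies with counts that did not pass the filter at E18.5 summed to 0 to 73 counts over the 8 samples.

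LeuCAA was carried mainly by chr11.trna1911-LeuCAA (chr11:58115956-58116102 in mm9, minus strand), with 64.6% of its counts. This copy took 1.28%, 1.29%, 1.29% and 1.42% of all counts in the Nsun2-/- samples at E18.5 and 1.60%, 1.52%, 1.59% and 1.47% in wild-type, without overlap. Its log2 fold change was -0.20 (SE 0.101, edgeR adjusted p = 0.354). Copies lower without overlap in Nsun2-/- made up 7.55% of the 106 tested, and among the 15 leucine and serine copies there were 2, this one and chr19.trna711-SerGCT. The next copy, chr13.trna65-LeuCAA (chr13:21292053-21292197, plus strand), held 30.7% of LeuCAA counts, with 33, 30, 28 and 14 counts in Nsun2-/- and 38, 42, 32 and 42 in wild-type samples at E18.5, a log2 fold change of -0.22 (SE 0.195, edgeR adjusted p = 0.732). Without Nsun2-/- sample 4, its lowest, chr13.trna65-LeuCAA had a log2 fold change of -0.060, and without Nsun2-/- sample 1 of -0.35. The remaining copies were sparse: chr13.trna998-LeuCAA had 44 counts over all 11 samples and chr13.trna85-LeuCAA had 15.

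SerGCT was spread over 4 copies with similar counts. The most counted, chr19.trna711-SerGCT (chr19:5038284-5038405, minus strand), took 0.607%, 0.657%, 0.696% and 0.623% of counts in Nsun2-/- samples at E18.5 and 0.817%, 0.760%, 0.824% and 0.861% in wild-type samples, without overlap. It had a log2 fold change of -0.31 (SE 0.140, edgeR adjusted p = 0.315). The copies chr2.trna1509-SerGCT, at -0.41 (SE 0.223), and chr13.trna970-SerGCT, at -0.40 (SE 0.188), had the largest log2 fold changes of the tested leucine and serine copies, with edgeR adjusted p = 0.334 and 0.264. The copy chr11.trna1821-SerGCT had 0.15 (SE 0.191), so the copies did not share a sign.

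The other copies with the largest differences at E18.5 were chr11.trna394-SerAGA, at -0.27 (SE 0.298), and chr8.trna414-LeuCAG, at -0.26 (SE 0.287). Log2 fold changes of the 15 copies ran from -0.41 to 0.20, with 9 below 0 and a median of -0.20, against 51 of 106 and a median of 0.02 over all copies tested. None of the 15 passed in edgeR or in DESeq2, with 1 and 0 under 0.05 before adjustment, where 9.43% of all 106 copies passed in edgeR and 19 were under 0.05 before adjustment. The number that passed was 10, against 4 with upper-quartile scaling and 3 with the replicate number as a block.

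The share of a family held by its most counted copy gave no genotype difference that passed at E18.5. The most counted copy took 67.1 ± 5.93% of LeuCAA in Nsun2-/- and 65.5 ± 4.40% in wild-type, and chr10.trna1316-LeuTAA took 74.1 ± 5.73% and 74.6 ± 5.27% of LeuTAA (n = 4). The largest difference relative to its spread was that of chr10.trna688-SerCGA, at 69.9 ± 4.63% of SerCGA in Nsun2-/- against 64.0 ± 2.34% in wild-type (n = 4, exact permutation p = 0.0571, adjusted p = 0.314 over 44 families). In the 8 leucine and serine families tested, no leading copy had a permutation p under 0.05, where 11.4% of all 44 did. The leading copies of the other families were chr8.trna414-LeuCAG, chr7.trna861-LeuTAG, chr13.trna86-SerAGA, chr19.trna711-SerGCT and chr10.trna1095-SerTGA.

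**Figure D4:**
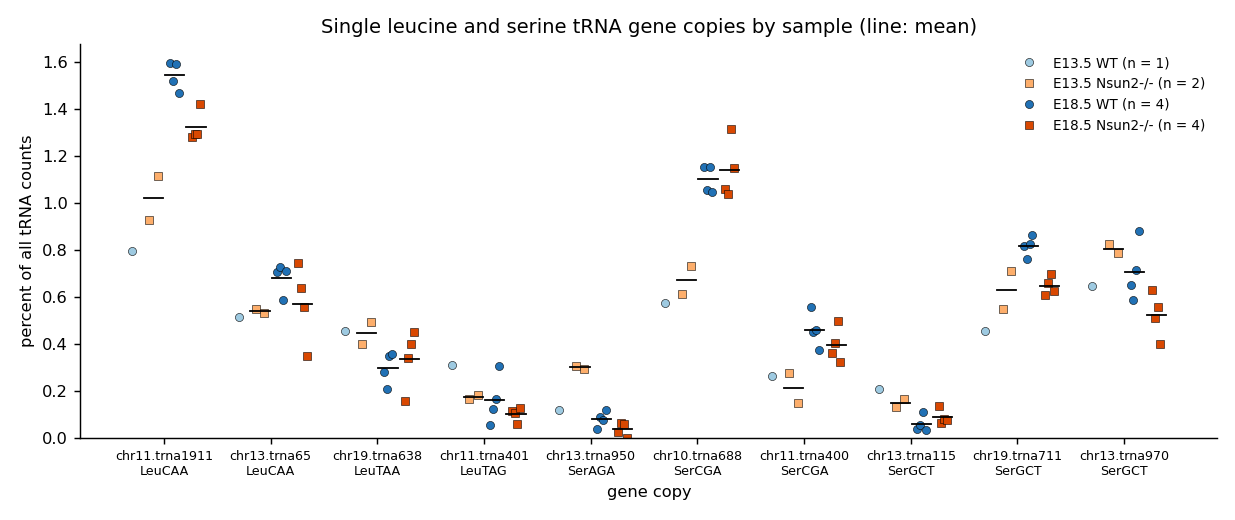
Percent of all tRNA counts (y axis) for 10 single leucine and serine gene copies (x axis) in each of the 11 samples; points are samples, colours and shapes are stage and genotype, and the line is the mean of a group with more than 1 sample. The E18.5 samples lie above the E13.5 samples for chr11.trna1911-LeuCAA, chr10.trna688-SerCGA and chr11.trna400-SerCGA. How many of all copies separate by stage in this way is not given here.

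Between stages, 7 of the 22 tested copies passed, 3 upward and 4 downward. Over all 155 tested copies, 29.0% passed, 11.6% upward and 17.4% downward, and with library size as the only scaling the split was 23 upward and 18 downward in place of 18 and 27.

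The copies that rose were the most counted LeuCAA copy, the most counted SerCGA copy and the next SerCGA copy. The LeuCAA copy chr11.trna1911-LeuCAA rose from 0.793% in wild-type and 0.926% and 1.11% in Nsun2-/- samples at E13.5 to between 1.28% and 1.60% at E18.5, a log2 fold change of 0.55 (SE 0.132, edgeR adjusted p = 0.0016). Within Nsun2-/- samples alone chr11.trna1911-LeuCAA did not pass, at 0.28 (edgeR adjusted p = 0.276). The copy chr10.trna688-SerCGA (chr10:127895500-127895621, minus strand) rose from 0.573%, 0.611% and 0.730% to between 1.04% and 1.31%, a log2 fold change of 0.74 (SE 0.146, edgeR adjusted p = 0.0002). The copy chr11.trna400-SerCGA (chr11:68924401-68924522, plus strand) had 18 counts in wild-type and 27 and 8 in Nsun2-/- at E13.5, and 13 to 30 at E18.5, where its share was higher in every sample, with a log2 fold change of 0.68 (SE 0.238, edgeR adjusted p = 0.029), and it did not pass in DESeq2 (adjusted p = 0.087) or within Nsun2-/- samples alone (edgeR adjusted p = 0.115).

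None of the copies that fell was the most counted copy of its family. In share of all counts, which takes account of depth, each of them overlapped between stages. Their totals over all samples ran from 65 to 225 counts, against 229 for chr11.trna400-SerCGA, which rose. The copy chr13.trna950-SerAGA (chr13:23592806-23592927, minus strand) had 30 and 16 counts in Nsun2-/- and 8 in wild-type at E13.5, and 0 to 7 at E18.5, a log2 fold change of -1.85 (SE 0.468, edgeR adjusted p = 0.0027). In Nsun2-/- its share was 0.305% and 0.292% at E13.5 and at most 0.0636% at E18.5. In wild-type it was 0.117% at E13.5 and 0.0371% to 0.118% at E18.5. Its genotype difference was 1.33 at E13.5 (SE 0.588) and changed by -2.32 with stage (SE 0.867), and neither passed. The copy chr13.trna115-SerGCT (chr13:23613719-23613840, plus strand) had 13 and 9 counts in Nsun2-/- and 14 in wild-type at E13.5 and 2 to 6 at E18.5, a log2 fold change of -1.37 (SE 0.399, edgeR adjusted p = 0.0092). Its share reached 0.135% in Nsun2-/- sample 1 of E18.5, against 0.132% to 0.206% at E13.5. The call of chr13.trna115-SerGCT was lost in DESeq2 (adjusted p = 0.104) and within Nsun2-/- samples alone (-0.81, edgeR adjusted p = 0.327).

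The LeuTAG copy chr11.trna401-LeuTAG (chr11:68937723-68937844, plus strand) had 16 and 10 counts in Nsun2-/- and 21 in wild-type at E13.5 and 3 to 18 at E18.5, a log2 fold change of -0.96 (SE 0.352, edgeR adjusted p = 0.037). The LeuTAA copy chr19.trna638-LeuTAA (chr19:12085556-12085678, minus strand) had 39 and 27 counts in Nsun2-/- and 31 in wild-type at E13.5 and 7 to 21 at E18.5, a log2 fold change of -0.62 (SE 0.238, edgeR adjusted p = 0.048). In share, chr11.trna401-LeuTAG reached 0.304% in wild-type sample 4 of E18.5, against 0.163% to 0.308% at E13.5. The share of chr19.trna638-LeuTAA reached 0.449% in Nsun2-/- sample 4 of E18.5, against 0.397% to 0.493% at E13.5. Neither was called by DESeq2, with adjusted p = 0.250 and 0.305, nor within Nsun2-/- samples alone, with edgeR adjusted p = 0.279 and 0.314. Leaving out single libraries ended the call of chr19.trna638-LeuTAA for 7 of 10 libraries and that of chr11.trna401-LeuTAG for 6 of 10, with lowest sizes of -0.48 and -0.70, and that of chr11.trna400-SerCGA for 2, Nsun2-/- sample 2 of E13.5 and Nsun2-/- sample 3 of E18.5, at 0.56 and 0.62. Of the 7 copies, DESeq2 called 3, which were chr10.trna688-SerCGA, chr11.trna1911-LeuCAA and chr13.trna950-SerAGA.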

How the data were processed

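Small RNA libraries (20 to 200 bases, deaminoacylated, TruSeq) were described by the labels and methods. This range is that of the RNA taken into the libraries. Per the methods, the amplified cDNA was selected by size once more before sequencing, and its effect on full-length tRNAs with a long arm was not tested. The authors deposited raw counts per tRNA gene, made with bowtie (reads with 1 best place, up to 2 mismatches, CCA ends trimmed from unmapped reads) and, per the file headers, featureCounts 1.4.4 on an mm9 tRNA annotation. The methods and processing notes name mm10, and coordinates are printed as in the files. Counting did not separate fragments from full-length tRNAs.

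Counts were summed by family and tested over the whole table with edgeR 4.0.16 (quasi-likelihood, TMM, filterByExpr with a minimum count of 10, Benjamini-Hochberg, threshold 0.05) in R 4.3.3, and with DESeq2 1.42.0 as an alternative. The E18.5 comparison used its 8 samples, and the others used all 11 in 1 fit with 4 groups, in which the single E13.5 wild-type sample was assumed to vary like the rest. Shares were compared by exact permutation tests (scipy), adjusted over all amino acids, anticodons or families of the table with a mean of at least 10 counts, which replaced the adjustment over leucine and serine alone. Scripts were tested on simulated data. Total counts were 4011 to 9827, and intervals and the limit of 3 counts cover counting error only. Named copies were every LeuCAA copy with a count, the most counted copy of each other family, the 5 with the largest change at E18.5 and any copy that passed a test. The members and lists were chosen with earlier results of these data known. Alternatives were DESeq2, other scalings and filters, leaving out 1 sample at a time, the replicate block, and Nsun2-/- samples 1 and 2 as 1 sample. The E13.5 wild-type sample, the only one of its group, was never left out. Sequences came from the study's lists of differentially abundant reads, of which a part was read and no value was used.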

Additional observations from a re-analysis of the deposited data

Results flagged for a closer look

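In 56 groups of 4 samples tested for a sample far from the rest, 4 stood apart, where chance alone gives about 1 in 20. In E18.5 wild-type sample 3, LeuCAA made up 39.4% of leucine counts against 43.1% to 43.3% in the other wild-type samples, which is the same gap as its log2 ratio to other leucine tRNAs of -0.62 against -0.40 to -0.39. In E18.5 Nsun2-/- sample 3, SerCGA made up 30.7% of serine counts against 27.8% to 28.1% in the others. In E18.5 wild-type sample 4, chr13.trna86-SerAGA made up 49.5% of SerAGA counts against 67.0% to 69.0% in the others.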

How the results depend on the processing

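At E18.5 no leucine or serine family or copy was called under any alternative run, the replicate block (a fit paired by replicate number) included, which gave 0 families and 0 copies. The numbers pair no samples by their labels, and the deviations of same-numbered samples from their group means correlated by between -0.12 and 0.24, with samples 2 and 3 correlating best with their own number. Leucine's share kept its direction but did not pass with the paired sign-flip test (-0.57 percentage points, p = 0.125, the smallest it allows), with Nsun2-/- samples 1 and 2 averaged (-0.52), against counts outside leucine, serine and selenocysteine (-0.68), without LeuCAA (-0.20) or without any 1 sample (-0.68 to -0.51, exact permutation p = 0.0571, the smallest that 3 against 4 samples allow). Counts of shares with p under 0.05 were not recomputed under those smaller designs, which cannot reach the threshold.

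Between stages, 1 family was called within Nsun2-/- samples and 2 in each other alternative. Called copies numbered 7, against 3 with DESeq2, all among the 7, 3 within Nsun2-/- samples, of which 2 were among the 7 and chr13.trna970-SerGCT was not, 2 with at least 10 counts in every sample, both among the 7, and 4 to 7 with 1 sample left out, where without wild-type sample 1 or 4 of E18.5 chr19.trna711-SerGCT was also called. Without a filter 8 copies were called, 6 of them among the 7, and chr13.trna952-LeuCAG and chr13.trna998-LeuCAA were added. With library size as the only scaling 6 were called, 5 of them among the 7, and chr19.trna711-SerGCT was added. Families whose genotype difference changed with stage numbered 0 with any 1 sample of E18.5 left out. That 0 does not cover the fits without an Nsun2-/- sample of E13.5. Those fits set 1 sample against 1 at that stage, so their calls are not given. The size for SerGCT was farthest from 0 there, at -0.73 without Nsun2-/- sample 1 of E13.5. Within Nsun2-/- samples the stage difference turned to 0.033 for LeuAAG and -0.23 for SerGCT.

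Small differences that did not pass changed sign with 1 sample left out. On the log2 scale SerCGA ran from -0.15 to 0.034, SerTGA from -0.076 to 0.28 and chr11.trna394-SerAGA from -0.42 to 0.052 at E18.5, and SerGCT from -0.049 to 0.11 between stages. In percentage points within their amino acid, LeuCAG ran from -1.17 to 0.58 and LeuTAG from -1.14 to 1.15. Within their family, chr11.trna1911-LeuCAA ran from -1.09 to 3.70, chr10.trna1316-LeuTAA from -3.19 to 1.28, chr13.trna86-SerAGA from -6.48 to 2.63 and chr10.trna1095-SerTGA from -5.41 to 8.30. With Nsun2-/- samples 1 and 2 averaged, LeuCAG turned to 0.30 and chr13.trna86-SerAGA to 1.18. Upper-quartile scaling moved the median of all copies by -0.12 at E18.5 and that of all families by -0.11 at E13.5, and scaling by library size moved that of all copies by 0.11 between stages. Low totals limit what can be seen for copies with few counts.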

Other observations

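In the main fit, neighbouring copies on chromosome 11 had stage differences of opposite sign. The copies chr11.trna400-SerCGA and chr11.trna401-LeuTAG lie on the same strand with 13200 bases between them. Their log2 fold changes were 0.68 and -0.96 (edgeR adjusted p = 0.029 and 0.037). Neither call held in DESeq2 or within Nsun2-/- samples alone, and each was lost when some single libraries were left out.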
